A study of Homo sapiens with 18 samples.

Results

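MALAT1 and NEAT1 are long noncoding RNAs that stay in the nucleus, transcribed by RNAPII from neighbouring genes on the plus strand of chromosome 11. They were picked by their Entrez gene IDs (378938 for MALAT1 and 283131 for NEAT1) and are 2 of the 23604 genes listed in at least 1 RNA-Seq library. The cells were MCF10A-ErSrc, a non-tumorigenic human breast epithelial line that carries Src fused to the ligand-binding part of the oestrogen receptor, so that tamoxifen switches on Src and transforms it. NT cells were not given tamoxifen and TAM cells were, and both received either DMSO alone or triptolide (TPL) at 0.125 µM, for 4 h. TPL binds the XPB subunit of TFIIH and blocks transcription initiation. There were 2 RNA-Seq libraries in each of the 4 groups (NT, NT + TPL, TAM and TAM + TPL), and 1 list of RNAPII ChIP-Seq peaks per condition, so peaks have no replicate spread. All samples come from a single line, and both transformed and untransformed cells carry the Src fusion.

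MALAT1 accumulates in nuclear speckles, domains rich in splicing factors. NEAT1 is made in a pair of forms from the same start: a short form that ends at an ordinary poly-A signal, and a long form that reads past that signal and is the scaffold of paraspeckles, nuclear bodies that form on it together with RNA-binding proteins. Neither MALAT1 nor the long form of NEAT1 ends in an ordinary poly-A tail, because RNase P cuts their ends and a U-rich and A-rich triple helix protects them, whereas the short form of NEAT1 is polyadenylated. The RNA was poly-A enriched before sequencing, and the part of this step in the values below was not tested.

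The 3 end regions that separate these forms are shown because the transcript length of NEAT1 differed between the groups. All are on the plus strand of GRCh37. The capitals mark AATAAA, the letters of a poly-A signal, in the first. In the others they mark runs of T (U in the RNA) or A around GC, and in MALAT1 also a run of T around C. The first is chr11:65193924-65194023, with an AATAAA 3705 bases after the main start site of NEAT1. It is the first AATAAA after the annotated end of the short form (65193928). It thus starts, at 65193974, beyond the short form as annotated, and whether it is the signal used was not tested. The second is chr11:65212912-65213011, the last 100 bases of the long form. Its stretch gtgtttcttttactg, also rich in T, is not marked. The search was wider for MALAT1, so the marked runs cannot be compared in number between the genes. The third is chr11:65273488-65273587, which ends 8476 bases after the main start site of MALAT1.
NEAT1 short form: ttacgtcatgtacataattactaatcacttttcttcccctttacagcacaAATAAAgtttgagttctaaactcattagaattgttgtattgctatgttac
NEAT1 long form: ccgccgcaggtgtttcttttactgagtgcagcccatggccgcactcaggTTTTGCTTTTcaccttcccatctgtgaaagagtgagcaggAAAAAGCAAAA
MALAT1: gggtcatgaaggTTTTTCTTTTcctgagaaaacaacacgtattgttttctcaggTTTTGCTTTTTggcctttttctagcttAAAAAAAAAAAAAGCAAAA
On the plus strand, AATAAA occurred 8 times in the long form of NEAT1 and was in 2.64% of its 227 windows of 100 bases. It occurred 24 times on the minus strand. In the MALAT1 gene it occurred 10 times on each strand. These are matches of letters only.

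The 8 libraries held between 7461309 and 8349448 expected counts assigned to genes. Of the epithelial markers checked, 5 of 6 were at 1 FPKM or more in every library, and their summed level ran from 12606 to 14269 FPKM in NT and from 2971 to 3146 FPKM in TAM. With TPL the sums were 8806 to 10781 FPKM in NT cells and 1396 to 1536 FPKM in TAM cells, and the part of this shift in the results below was not tested. These sums are mainly KRT5 and KRT17, keratins of basal epithelium, and the other markers did not all follow them. EPCAM, an epithelial adhesion protein, was at 25.1 and 24.2 FPKM in NT and at 35.7 and 43.0 FPKM in TAM. TP63, a transcription factor of basal cells, was at 13.2 and 23.6 FPKM in NT and at 24.2 and 23.0 FPKM in TAM, and was called lower with TPL in both cell states, at -5.31 on the log2 scale in NT (adjusted p = 0.000439) and at -5.04 in TAM (adjusted p = 0.000491). The 6 markers of leukocytes, endothelium, fibroblasts and mural cells summed to between 1.57 and 9.25 FPKM. None of these 6 reached 1 FPKM in every library. In bulk RNA, fewer cells of a type and less RNA per cell cannot be told apart.

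The level of NEAT1 per length (FPKM) was higher with TPL in both cell states, while its count was lower with TPL in NT cells. Neither passed the call rule given below. NEAT1 stood at 59.2 and 61.45 FPKM in the 2 NT libraries and at 83.4 and 90.8 FPKM in the 2 NT + TPL libraries. It stood at 60.6 and 57.4 FPKM in TAM and at 104 and 105 FPKM in TAM + TPL. The TPL libraries lay above the DMSO libraries without overlap in both cell states, and the NT and TAM libraries with DMSO overlapped. The means were 60.3 ± 1.57 FPKM in NT and 87.1 ± 5.24 with TPL, and 59.0 ± 2.25 FPKM in TAM and 104.8 ± 0.544 with TPL (SD, n = 2 each). Of the 16948 genes tested, 36.4% were higher without overlap with TPL in NT, 40% in TAM and 27.8% in both, so this direction was a common one. In order of level, both TAM + TPL libraries were above both NT + TPL libraries. On the log2(FPKM + 1) scale that difference was 0.26 (limma, adjusted p = 0.203), which is no call. NT and TAM did not differ beyond their spread.

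The expected counts of NEAT1 gave another order. NT libraries held 5570 and 6314 counts of NEAT1, and NT + TPL libraries held 3166 and 3085. TAM libraries held 3866 and 3125, and TAM + TPL libraries 3780 and 4032. NT was the highest group on this scale. In edgeR's quasi-likelihood test NEAT1 was 0.84 lower on the log2 scale in NT + TPL than in NT (log2 fold change -0.84, SE 0.15, adjusted p = 0.00541). It was 0.21 higher in TAM + TPL than in TAM (SE 0.14, adjusted p = 0.303). In TAM against NT with DMSO its log2 fold change was -0.79 (SE 0.15, adjusted p = 0.0225), and with TPL it was 0.26 (SE 0.15, adjusted p = 0.370). A gene was called where its adjusted p was at most 0.001 and its log2 fold change was 1.2 or more in size, and on counts NEAT1 was not called in any of these comparisons. Calls were made for 3.93% of genes with TPL in NT (1.22% higher and 2.71% lower) and for 2.88% with TPL in TAM (0.844% higher and 2.04% lower). Between cell states they were made for 0.655% with DMSO (0.378% higher and 0.277% lower in TAM) and for 0.596% with TPL (0.36% higher and 0.236% lower). An adjusted p of at most 0.05 alone was reached by 37% of genes with TPL in NT, 33% with TPL in TAM, 6.84% in TAM against NT with DMSO and 7.03% with TPL, so the p-values of NEAT1 in NT and between the DMSO groups passed that looser limit only.

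**Figure D1:**
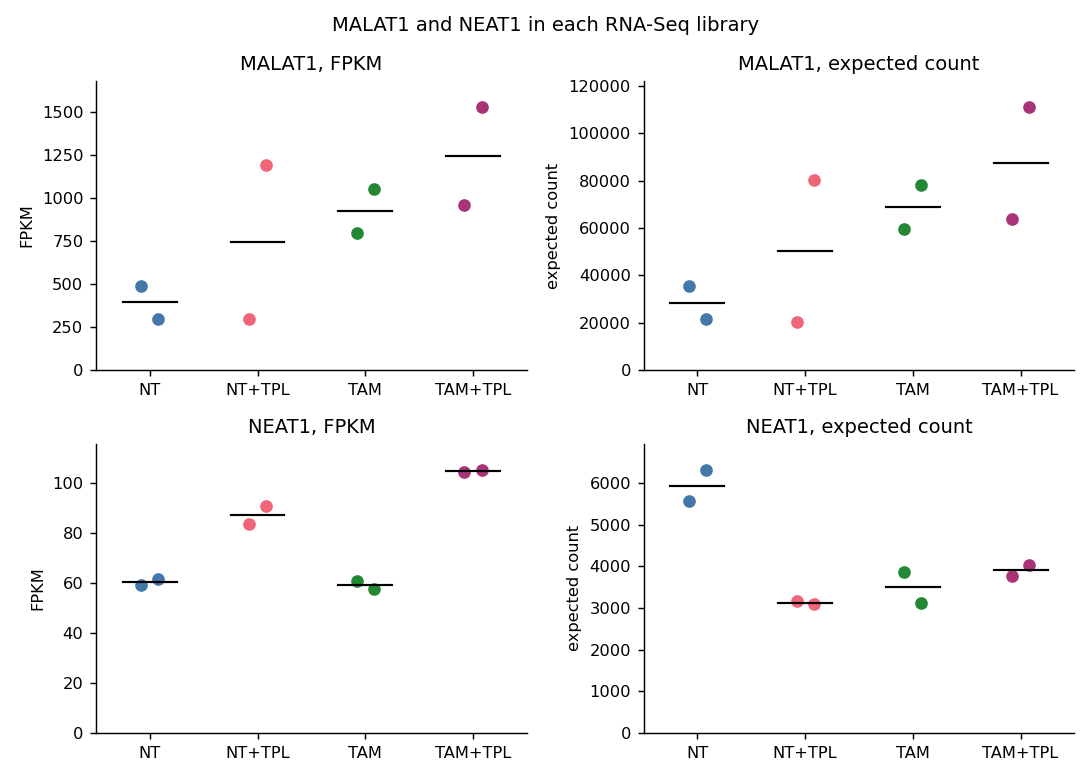
MALAT1 (top) and NEAT1 (bottom) in each RNA-Seq library, as FPKM (left) and expected count (right), with a point per library and a bar at the mean of the 2 libraries of a group. NEAT1 is higher in FPKM with TPL in both cell states, while its expected count is lower in NT + TPL than in NT, and the 2 NT + TPL libraries of MALAT1 lie far apart.

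The 2 scales part because the mean transcript length given for NEAT1 changed. RSEM writes for each gene a length weighted by the abundance of its transcripts, and the FPKM of NEAT1 computed from its count and this length matched the deposited FPKM to within 0.01% in every library. The length was 11408 and 12483 bases in NT and 4884 and 4435 bases in NT + TPL. TAM libraries had 7522 and 6437 bases, and TAM + TPL libraries 4778 and 4643 bases. The 4 TPL libraries had the lowest lengths, the TAM libraries were intermediate and the NT libraries the highest, without overlap between TPL and DMSO in either state.

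Such a shift was large for these libraries. Among 6471 genes with more than 1 transcript entry and at least 10 counts in every library, the ratio of the mean length with TPL to that with DMSO in NT was 0.390 for NEAT1, the lowest of all, and no other gene that shortened without overlap was below 0.5. In TAM the ratio was 0.675, position 5 from the shortest. In TAM against NT with DMSO it was 0.584, position 2, and with TPL it was 1.01. The median gene did not change its length with TPL in NT, with a ratio of 1. Shorter without overlap were 15.2% of these genes with TPL in NT, 13.3% with TPL in TAM and 15.6% in TAM against NT with DMSO, so the absence of overlap is common in these libraries.

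The files list 2 transcripts for NEAT1, so its length gives the share of each. The long form was taken as 22743 bases (the annotated transcript at chr11:65190269-65213011) and the short form as 3684 bases (the span of the annotated short transcript), since the length used by the authors for the short form is not given in the sources used here. The long form was then 40.5 and 46.2% of NEAT1 molecules in the NT libraries, and 6.30 and 3.94% in NT + TPL. These are shares within poly-A enriched libraries and not of the NEAT1 in the cells, since the long form lacks an ordinary poly-A tail. TAM libraries had 20.1 and 14.4%, against 5.74 and 5.03% for TAM + TPL. The share of the paraspeckle scaffold form was lower with TPL in all 4 libraries, by 25.1 percentage points on average over both cell states (two-sided exact permutation test within cell state, p = 0.0556, the smallest this design allows).

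The 2 forms moved in opposite directions. The long form, the scaffold, was at 24.0 and 28.4 FPKM in NT and at 5.25 and 3.58 FPKM in NT + TPL. The short form was at 35.2 and 33.1 FPKM in NT and at 78.2 and 87.3 FPKM in NT + TPL. Neither form overlapped between these groups. With the count of NEAT1 split by form in the same edgeR fit, the long form fell by 2.58 on the log2 scale with TPL in NT (log2 fold change -2.58, SE 0.25, adjusted p = 0.000674), and the short form rose by 1.27 (SE 0.13, adjusted p = 0.000877). Both were calls, and calls in the falling direction made up 2.71% of genes and in the rising direction 1.22%. These changes are relative to the other RNAs of a poly-A enriched library and are not amounts per cell. With GAPDH as the reference the short form was at 0.92 (edgeR adjusted p = 0.00844), which is no call. Neither call held when any 1 of the 8 libraries was left out. With most of them left out no gene at all was called with TPL in NT, so this loss does not single out NEAT1. The change of the long form then lay between -2.84 and -2.34, and that of the short form between 1.17 and 1.38.

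In TAM cells the same directions were seen with smaller sizes. The long form was at 12.2 and 8.29 FPKM in TAM and at 5.99 and 5.29 FPKM in TAM + TPL, a difference of -0.91 on the log2 scale (SE 0.24, adjusted p = 0.0269), which is no call. The short form was at 48.4 and 49.1 FPKM in TAM and at 98.4 and 99.9 FPKM in TAM + TPL, a difference of 0.98 on the log2 scale (SE 0.13, adjusted p = 0.00241), which is no call either. The difference between the TPL effects in the 2 cell states was 1.67 for the long form (SE 0.34, adjusted p = 0.165) and -0.30 for the short form (SE 0.18, adjusted p = 0.601), so by edgeR a different response of TAM and NT cells was not shown. DESeq2 called the difference for the long form (1.68, adjusted p = 5.24e-05). No gene in the table was called for this difference by edgeR, 1799 genes had an unadjusted p under 0.05, 0.165% of genes had an adjusted p of at most 0.05, and DESeq2 called 143 genes.

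Between cell states with DMSO, the long form had a log2 fold change of -1.34 in TAM against NT (SE 0.24, adjusted p = 0.0202) and the short form one of 0.53 (SE 0.13, adjusted p = 0.0639). With TPL these were 0.33 for the long form (adjusted p = 0.488) and 0.23 for the short form (adjusted p = 0.369). None was a call. The split rests on the length RSEM assigned, and reads in the stretch that both forms share cannot be given to a form one by one. With the short form taken as long as the shortest NEAT1 length in the files, the change of the long form in NT was -4.63 with an adjusted p of 0.0324, no longer a call. That length is the one of NT + TPL replicate 2, so the long form is set to 0 in that library. The size of this change follows from that choice and does not test the assumed length.

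**Figure D2:**
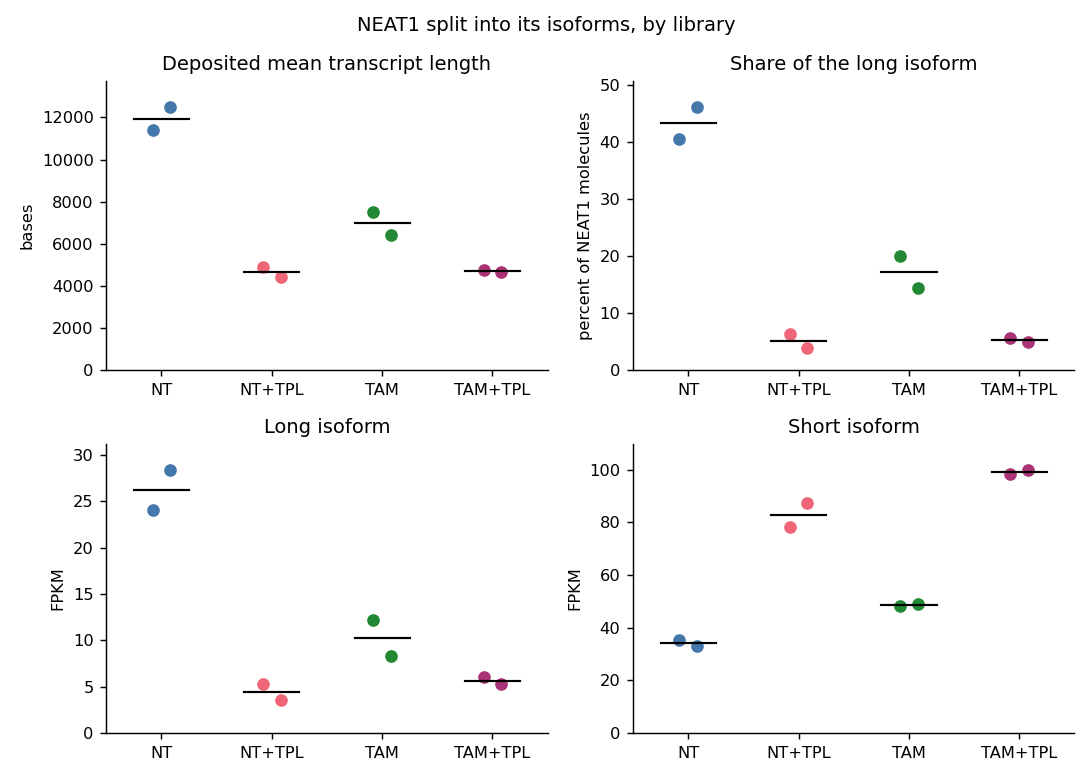
NEAT1 in each poly-A enriched library: the mean transcript length in the files in bases, the share of the long form in percent of NEAT1 molecules in the library, and the FPKM of the long and the short form, with a point per library and a bar at the group mean. The long form is at 24.0 and 28.4 FPKM in NT and at 5.25 and 3.58 FPKM in NT + TPL, while the short form goes from 35.2 and 33.1 to 78.2 and 87.3 FPKM.

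MALAT1, the speckle RNA, was not called in any comparison, and its libraries of a group lay far apart. It stood at 490.0 and 298 FPKM in NT and at 295 and 1193 FPKM in NT + TPL. It stood at 799 and 1051 FPKM in TAM and at 960.2 and 1527 FPKM in TAM + TPL. The TAM libraries lay above both NT libraries, as 24% of genes did, whereas each TPL group overlapped its DMSO group. The means were 394 ± 136 FPKM in NT and 744 ± 634 with TPL, and 925 ± 178 FPKM in TAM and 1244 ± 401 with TPL (SD, n = 2 each). MALAT1 made up 0.263 to 1.36% of all counts and ranked between 78 and 238 by FPKM, against 579 to 1172 for NEAT1. The files list a single transcript of 8758 bases for MALAT1 in every library, so its count and FPKM cannot part as those of NEAT1 did.

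The log2 fold change of MALAT1 with TPL in NT was 0.94 (SE 0.62, adjusted p = 0.269, 95% interval -0.54 to 2.41). Without NT + TPL replicate 2, the library at 1193 FPKM, it was -0.44, and without NT + TPL replicate 1 it was 1.63, so 1 library sets its sign. With TPL in TAM it was 0.38 (SE 0.62, adjusted p = 0.662). In TAM against NT it was 1.25 with DMSO (SE 0.63, adjusted p = 0.340, 95% interval -0.23 to 2.73) and 0.69 with TPL (SE 0.62, adjusted p = 0.598). With TPL it was 0.03 without NT + TPL replicate 1 and 2.10 without NT + TPL replicate 2. The difference of the TPL effects was -0.56 (SE 0.87, adjusted p = 0.866).

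The spread of MALAT1 between replicates was wide for a gene of its level. Among 1336 genes with a mean of at least 50 FPKM, the gap between the 2 NT + TPL libraries was 2.01 on the log2(FPKM + 1) scale for MALAT1, the fifth largest, against a median gap of 0.31. In NT it was 0.72, position 11, in TAM it was 0.39, position 56, and in TAM + TPL it was 0.67, position 26. NEAT1 had a gap of 0.12 or less in every group. Its positions from the largest gap were 916 to 1284.

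**Figure D3:**
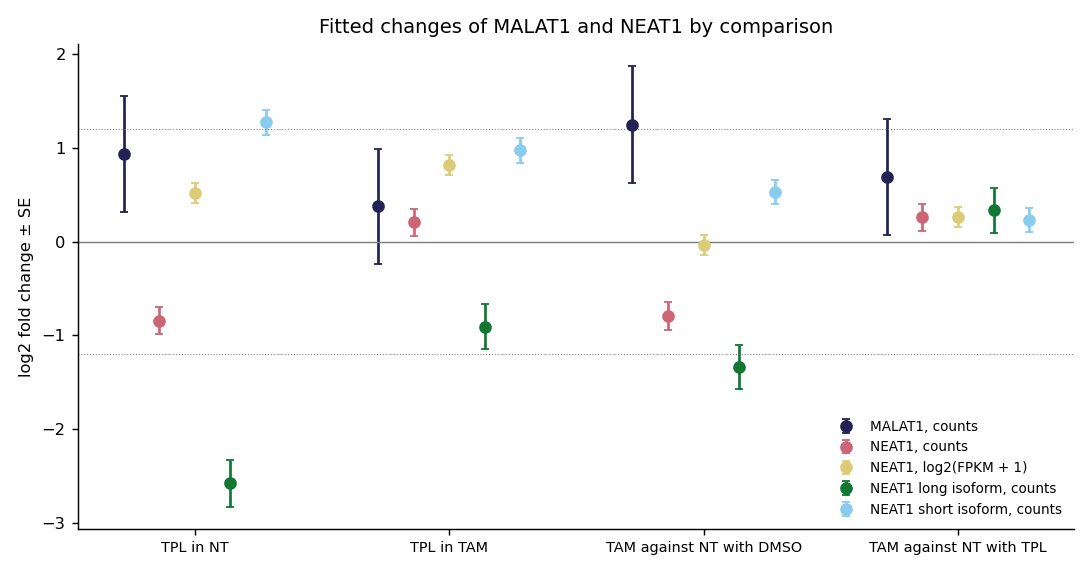
Log2 fold changes with their SE for MALAT1 and NEAT1 on counts, NEAT1 on log2(FPKM + 1), and the 2 forms of NEAT1 on counts, in the 4 comparisons, with dotted lines at the fold needed for a call. NEAT1 is at -0.84 on counts and at 0.52 on FPKM with TPL in NT, between its long form at -2.58 and its short form at 1.27.

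The ratio of MALAT1 to NEAT1 within a library does not depend on the scaling between libraries. In FPKM the NT libraries gave 8.27 and 4.84, and the NT + TPL libraries 3.54 and 13.1. TAM libraries gave 13.2 and 18.3, against 9.20 and 14.5 for TAM + TPL. The TPL libraries overlapped the DMSO libraries in both cell states. The mean log2 ratio was 0.16 lower with TPL (difference -0.16, two-sided exact permutation test within cell state, p = 0.778, smallest possible p 0.0556). On expected counts the difference was 0.81 (exact permutation p = 0.167), of the opposite sign.

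RNAPII peaks were listed over NEAT1 in all 4 conditions and over its main start site (position 65190269) in all 4, as was found for 41.7% of 15037 genes. The peak over this start site was 12170 bases wide in NT and 2208 with TPL, and in TAM cells it was 10343 bases wide and 7075 with TPL. By width it ranked 25 of 11222 peaks in NT and 192 of 8653 with TPL. In TAM cells its rank was 14 of 11056 peaks, and with TPL 14 of 8464. From the start site the peak reached 10721 bases into the gene in NT and 1565 with TPL, against 8428 in TAM and 6806 with TPL. Among the 4 lists, only that of NT + TPL had it stop before the AATAAA shown above, at 3705 bases. Called peaks between this peak and the next listed one are missing from every list. There 18 peak numbers are skipped in NT + TPL, 3 in NT, 6 in TAM and 14 in TAM + TPL. The end of the listed peak therefore need not be the end of RNAPII on the gene. The part of these reaches in the change of the long form was not tested.

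Listed peaks covered 64.2% of the NEAT1 gene in NT and 7.25% with TPL, and 54.1% in TAM and 37.9% with TPL. A peak over the end of the long form ran 8077 bases in NT, 776 in NT + TPL and 8526 in TAM, and in TAM + TPL the last peak, of 1804 bases, stopped before the end. These percentages are lower bounds. By the study's methods only peaks in a window around a start site were considered, and between the start site peak of NEAT1 and the next listed peak over the gene the running peak numbers skip 3 in NT and 18 with TPL, and 6 in TAM and 14 with TPL. The numbers rise along the chromosome in all 4 lists, so that many called peaks between them are not in the lists, more of them with TPL. The TAM list carries another cutoff label than the other lists, so differences in width between it and the others cannot be told apart from the cutoff.

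Over MALAT1, the listed peaks covered 93.4% of the gene in NT and 69.5% with TPL, and 98.7% in TAM and 97.5% with TPL. Its widest peak was 9792 bases in NT (rank 50 by width) and 5873 bases with TPL (rank 33). In TAM cells it was 10033 bases (rank 16), and 9746 bases with TPL (rank 5). The main start site of MALAT1 (position 65265111) lay within a peak only in TAM + TPL, since the first peak began 15 bases after it in NT and in TAM and 930 bases after it in NT + TPL. Main start sites were within a peak for 63.3% of the 15037 genes compared in NT and 50.5% with TPL, for 55.7% in TAM and 49.6% with TPL, and for 0.372% in the TAM + TPL list alone.

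The position of the start site decides this count. The RefSeq start of MALAT1 maps to 65265209 on GRCh37 and lay within a peak in NT, TAM and TAM + TPL but not in NT + TPL. Its promoter, 250 bases before to 50 bases after that start, is shown for this reason. It is at chr11:65264959-65265258 on the plus strand of GRCh37, from RefSeq's entry of a later build placed by an exact match, and the capitals mark the 133 bases within the first NT peak.
MALAT1 promoter: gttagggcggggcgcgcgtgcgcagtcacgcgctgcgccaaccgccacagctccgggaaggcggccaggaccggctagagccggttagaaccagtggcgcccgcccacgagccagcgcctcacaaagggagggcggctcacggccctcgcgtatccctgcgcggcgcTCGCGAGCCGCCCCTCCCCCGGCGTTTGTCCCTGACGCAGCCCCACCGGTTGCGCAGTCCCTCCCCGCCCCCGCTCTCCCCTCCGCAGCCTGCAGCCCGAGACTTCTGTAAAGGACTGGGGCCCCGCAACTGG
A second RefSeq start of MALAT1, at 65266516, was within a peak in all 4 lists. 1 of the 2 genes had a promoter entry in RefSeq's table, MALAT1, and NEAT1 had none. The antisense gene TALAM1 overlaps MALAT1 and has no row of its own in the RNA-Seq values. Its main start site, at 65274903, lay within a listed peak in all 4 lists. The peaks carry no strand, so RNAPII on TALAM1 cannot be told apart from RNAPII on MALAT1 in the coverage above. The strand of counting is not given in the sources used here, so reads of the antisense RNA cannot be told apart from those of MALAT1.

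**Figure D4:**
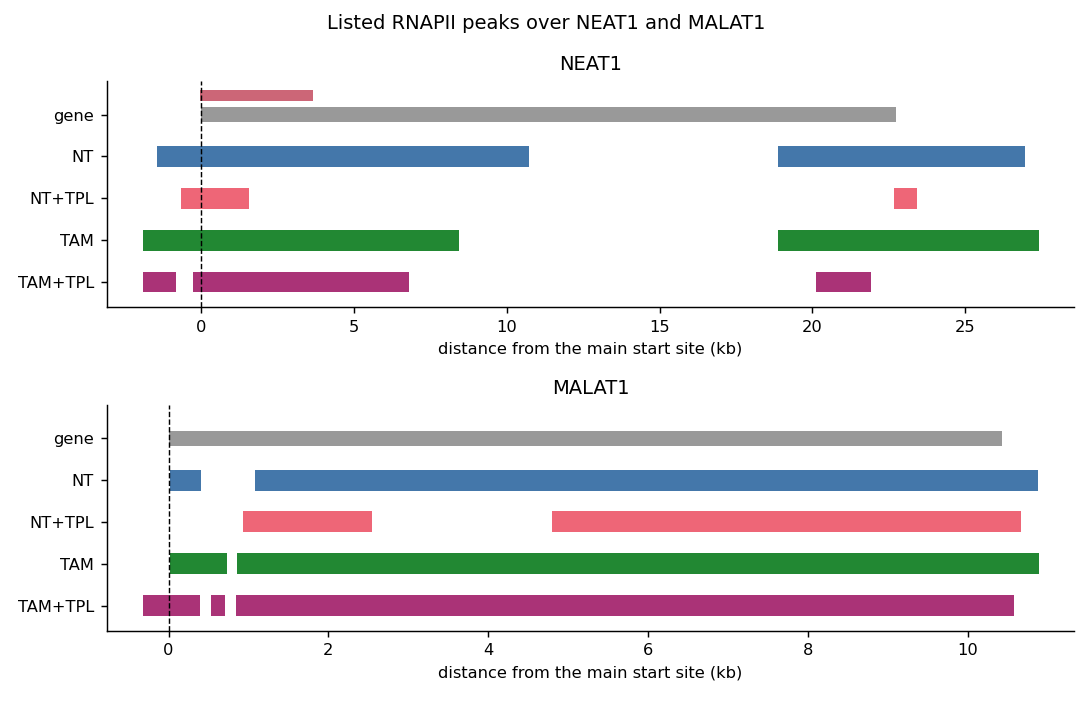
Listed RNAPII peaks over NEAT1 (top) and MALAT1 (bottom) by distance from the main start site in kb, with a row per condition, the gene in grey and the short form of NEAT1 as the bar above it. The listed peak over the NEAT1 start site reaches 10721 bases in NT and 1565 bases in NT + TPL, and called peaks beyond it are missing from the lists. The MALAT1 gene is covered to 69.5% or more in every list.

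The proteins known to meet these RNAs were looked at as lists. Counts in this and the following lists are to be read against all genes. An edgeR adjusted p of at most 0.05 was reached by 37% of genes with TPL in NT and 33% in TAM. In TAM against NT it was 6.84% with DMSO and 7.03% with TPL. At least these shares had an unadjusted p under 0.05. The shares at that limit are not given here, so the unadjusted counts below cannot show an excess over all genes. DESeq2 called 2534 genes with TPL in NT and 2272 in TAM, and between cell states 737 with DMSO and 667 with TPL. It was run without the filter on low counts, and the number of genes it tested is not given here. Its counts in these lists therefore cannot be set against a share of all genes. Of 18 paraspeckle proteins tested, 1 fell with TPL in NT in edgeR (5.56%, against 2.71% of all genes) and none was called with TPL in TAM, where 8 had an unadjusted p under 0.05. These 8 were 3 higher and 5 lower. In NT 9 of the 18 had an unadjusted p under 0.05, 4 higher and 5 lower. DESeq2 called 2 in NT and 1 in TAM. TARDBP, an RNA-binding protein also known as TDP-43, was the one that fell (log2 fold change -1.48, SE 0.15, adjusted p = 0.000854), from 32.9 and 37.9 FPKM in NT to 14.2 and 11.4 FPKM in NT + TPL. SFPQ and NONO, core paraspeckle proteins that bind NEAT1, had log2 fold changes of -0.34 (adjusted p = 0.116) and -0.20 (adjusted p = 0.338) in NT. HNRNPA1, the member with the highest mean FPKM, went the other way, at 0.87 in NT (adjusted p = 0.0274) and 0.44 in TAM (adjusted p = 0.187). EWSR1 was at 0.06 in NT (adjusted p = 0.738). The median of the 18 was -0.05 with TPL in NT and -0.13 in TAM, against 0.09 and 0.05 over all genes.

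Of 12 nuclear speckle proteins, 3 fell with TPL in NT and 2 in TAM (25% and 16.7%, against 2.71% and 2.04% of all genes), and DESeq2 called 3 in each. SRSF3, a splicing factor, went from 86.6 and 82.2 FPKM in NT to 16.7 and 16.2 FPKM in NT + TPL, a difference of -2.26 on the log2 scale (SE 0.13, adjusted p = 0.000197). In TAM its log2 fold change was -2.13 (adjusted p = 0.000280). SRSF2, another splicing factor, fell by 1.62 on the log2 scale in NT (adjusted p = 0.000348) and by 1.37 in TAM (adjusted p = 0.000607), and BCLAF1 fell by 1.84 in NT (adjusted p = 0.000385). For SON, a speckle scaffold protein, the change in NT was -0.49 (adjusted p = 0.0335). SRRM2, the other speckle scaffold protein, had -0.42 (adjusted p = 0.238). The median of the 12 was -0.73 in NT and -0.27 in TAM. The calls of this list and of TARDBP did not all hold with 1 library left out, but most such fits called no gene at all with TPL.

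Of 20 proteins of end processing and nuclear RNA decay, none was called by edgeR with TPL in NT or TAM, where 10 and 13 had an unadjusted p under 0.05. DESeq2 called 3 in NT and 2 in TAM, and its share over all genes is not given here. Between cell states neither tool called any, and 0 had an unadjusted p under 0.05 with DMSO and 5 with TPL. The median was -0.27 with TPL in NT and -0.57 in TAM. EXOSC10, an exonuclease of the nuclear exosome, had -0.97 in NT (adjusted p = 0.00193) and -1.11 in TAM (adjusted p = 0.00135). ELAC2, the RNase Z that trims tRNA ends, had -0.87 in NT (adjusted p = 0.00324) and -1.15 in TAM (adjusted p = 0.00135). RPP38, a subunit of RNase P, had -0.88 in NT (adjusted p = 0.00961) and -1.17 in TAM (adjusted p = 0.00399). RPP21, another subunit, was at 68.9 and 55.8 FPKM in NT and at 64.4 and 57.3 FPKM in NT + TPL, a difference of -0.05 on the log2 scale (adjusted p = 0.857), and in TAM it had -0.53 (adjusted p = 0.0812). The lowest of the list were a further pair of RNase P subunits, chosen after their values were seen. RPP40 was at 14.5 and 11.6 FPKM in NT and at 0.37 and 1.06 FPKM in NT + TPL (difference -4.19, SE 0.60, adjusted p = 0.00274), and POP1 had -2.36 (SE 0.33, adjusted p = 0.00262). In TAM they had -2.57 (adjusted p = 0.0145) and -2.20 (adjusted p = 0.00396). The subunits of RNase P did not all move alike. The remaining ones, named to complete the set, had these log2 fold changes in NT: RPP25 0.33, POP5 0.24, RPP30 0.03, RPP14 -0.01, POP4 -0.16 and POP7 -1.85. In TAM the same subunits had, in this order, -0.40, 0.05, -0.32, -0.01, -0.69 and -1.19.

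Of 15 other long noncoding RNAs tested, none was called by edgeR in the 4 comparisons, where 8 (TPL in NT), 4 (TPL in TAM), 4 (TAM against NT with DMSO) and 5 (the same with TPL) had an unadjusted p under 0.05. DESeq2 called 3, 2, 1 and 2 of them. LOC730101, chosen after its values were seen, had the highest log2 fold changes of the list with TPL, at 5.62 (NT, SE 0.98, adjusted p = 0.00569) and 5.37 (TAM, SE 0.90, adjusted p = 0.00558). It was at 0 and 0.1 FPKM in NT and at 4.29 and 1.21 FPKM in NT + TPL, and at 0.09 and 0.13 FPKM in TAM and 5.53 and 4.63 FPKM in TAM + TPL. GAS5, a host of small nucleolar RNAs, was at 199 and 168 FPKM in NT and at 340.1 and 593 FPKM in NT + TPL, a difference of 1.35 on the log2 scale (SE 0.29, adjusted p = 0.0118). In TAM it was at 468 and 555 FPKM. DANCR was at 125.2 and 113 FPKM in NT and at 49.1 and 52.1 FPKM in TAM, a difference of -1.22 on the log2 scale (adjusted p = 0.00603). The median of the 15 was 0.56 with TPL in NT and 0.47 in TAM, and 11 of the 15 were above 0 in each.

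Since poly-A enrichment bears on the ends of MALAT1 and long NEAT1, classes of RNA that mostly lack a poly-A tail were looked at too. They were histone genes and RNase P and similar RNAs. Whether the reads of each member came from RNA without a tail was not tested. Of 33 tested, 1 rose with TPL in NT in edgeR (3.03%, against 1.22% of all genes) and none was called in TAM, where 18 had an unadjusted p under 0.05. DESeq2 called 5 in NT and 4 in TAM. Among the 33 are 3 histone genes whose values are identical to those of a near-identical copy in the list, so these pairs are counted 2 times and their values are uncertain. H2BC20P, listed as a histone pseudogene that may share reads with histone genes, rose by 4.27 on the log2 scale (SE 0.45, adjusted p = 0.000929). It was not called when any 1 library was left out, but most such fits called no gene at all with TPL in NT. Their median was 1.15 with TPL in NT and 1.27 in TAM, with 28 of 33 and 26 of 33 above 0. RN7SL1, the RNA of the signal recognition particle, was at 694 and 602 FPKM in NT and at 262 and 229 FPKM in NT + TPL, a difference of -1.41 on the log2 scale (adjusted p = 0.0411). In TAM it was at 465 and 758 FPKM and with TPL at 1088 and 431 FPKM, a difference of 0.27 (adjusted p = 0.652).

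**Figure D5:**
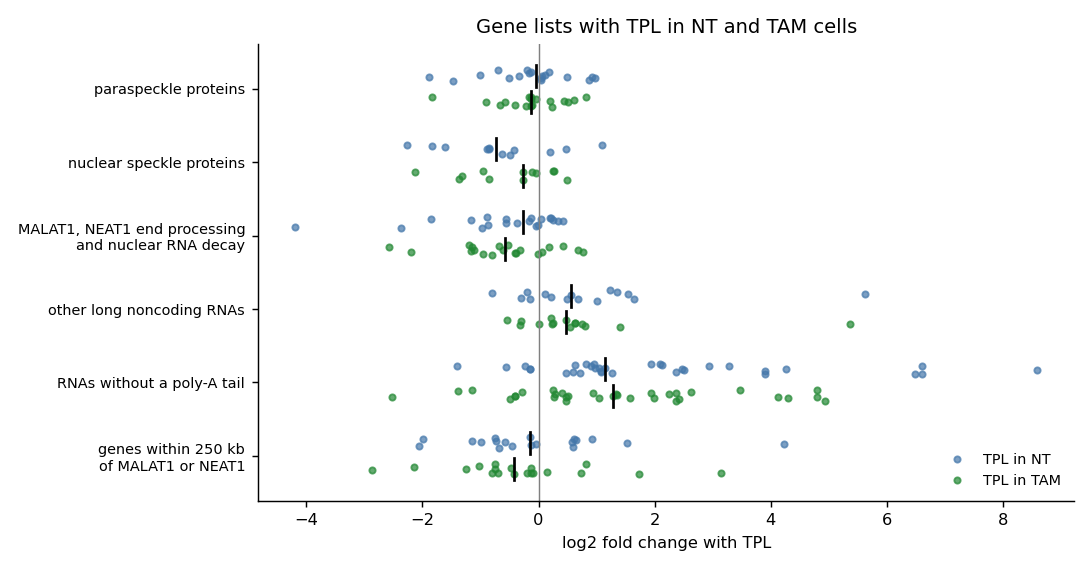
Log2 fold change with TPL of each tested member of 6 gene lists, in NT (blue) and TAM (green), with a point per gene and a bar at the median of the list. The median of the nuclear speckle proteins is -0.73 in NT, and that of the list named RNAs without a poly-A tail is 1.15.

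Around the 2 genes, 19 genes with a start site within 250 kb were tested. In edgeR none was called with TPL in NT, where 13 had an unadjusted p under 0.05, and 1 fell with TPL in TAM (5.26%, against 2.04% of all genes). DESeq2 called 2 in NT and 3 in TAM. KAT5, the acetyltransferase Tip60, was at 10.1 and 9.24 FPKM in TAM and at 1.52 and 1.23 FPKM in TAM + TPL, a difference of -2.87 on the log2 scale (SE 0.29, adjusted p = 0.000846). LTBP3, which binds latent TGF-beta, was at 20.9 and 21.0 FPKM in NT + TPL and at 5.28 and 4.84 FPKM in TAM + TPL, and was called lower (log2 fold change -2.09, SE 0.13, adjusted p = 0.000284). FRMD8, which lies upstream of NEAT1, had a log2 fold change of -1.14 with TPL in NT (adjusted p = 0.00249), and a peak lay over its main start site in all 4 lists. RELA, a subunit of NF-kappa-B, had -0.98 in NT (adjusted p = 0.0152) and -1.25 in TAM (adjusted p = 0.00716). The median of the 19 was -0.15 in NT and -0.43 in TAM. With 1 library left out, LTBP3 was not called in any fit, and each of those fits called fewer genes over all. With any of the 4 TAM-state libraries or either NT library left out KAT5 was not called either. No gene at all was called with TPL in TAM in those fits.

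MALAT1 and NEAT1 are long RNAs, and other long genes were counted for comparison. Of 439 tested genes with a single transcript entry of at least 8000 bases, 7 rose and 7 fell with TPL in NT, with a median log2 fold change of -0.10. With TPL in TAM, 9 rose and 2 fell, with a median of 0.15. Among all 9185 genes with a single transcript entry, 113 rose and 236 fell in NT (median 0.17), and 78 rose and 162 fell in TAM (median 0.14).

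The genes whose log2(CPM + 1), the log of counts scaled to library size, was most like that of MALAT1 over the 8 libraries, among 8514 genes with a mean of at least 5 FPKM, were LSM5 (Pearson r 0.97), NDUFAF2 (0.96), GSTO1 (0.95), TAF1D (0.95) and JTB (0.95). For NEAT1 they were MAPKAPK2 (0.93), EPS8L1 (0.92), PKD1P6 (0.91), STK3 (0.91) and IL27RA (0.91). These 8 points share libraries and groups, so the values describe the libraries only. Between MALAT1 and NEAT1, r was -0.48 on CPM and 0.43 on FPKM. The 5 genes nearest to MALAT1 on FPKM were the same 5, whereas those nearest to NEAT1 on FPKM shared none with those on CPM. By Spearman's rho on CPM, 2 of the 5 nearest to MALAT1 and 0 of the 5 nearest to NEAT1 stayed the same, and rho between MALAT1 and NEAT1 was -0.24.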

How the data were processed

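The series holds 18 samples: 8 RNA-Seq libraries, 8 RNAPII ChIP-Seq samples and 2 inputs. Replicates were independent per the study's methods. For RNA-Seq, the authors made expected counts with Bowtie2 and RSEM from poly-A enriched RNA and deposited them without normalization. The FPKM values and the abundance-weighted transcript lengths were deposited by the authors from the same RSEM runs. The peak lists (starts and ends, hg19) were made by the authors with SOAP2 and MACS 1.4.2 over input and hold peaks selected around start sites. The submitters' processing notes also name BWA and HOMER. The lists carry no score, and their names give a differing cutoff for TAM and the tag of replicate 1. Positions are 1-based.

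A gene not listed in a library was taken as 0 there. Of 23604 genes, 21077 were named by gene ID and 2407 by accession. The deposited expected counts were made whole and fitted by quasi-likelihood in edgeR 4.0.16 (R 4.3.3) after TMM scaling and a group-wise filter on low counts, with p-values adjusted by Benjamini-Hochberg, in 1 fit of 4 groups over 16948 genes, with a common dispersion of 0.0990. Alternatives used DESeq2 1.42.0, limma 3.58.1 on log2(FPKM + 1) and log2(FPKM + 0.1), other scalings and filters, and leaving out each library. Scripts were tested on simulated data. The split of NEAT1 by form, the length offsets and the motif search were added after seeing the data. Start sites and genome sequence came from GENCODE on GRCh37, the main start site being that of the canonical transcript.

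Named genes were MALAT1 and NEAT1, list members that were called plus up to 4 of the highest mean FPKM per list, neighbours with a mean of at least 1 FPKM, and the 5 genes most like each member. Not all of these are named, and 1 is not reported here. The members and lists were chosen with earlier results of these data known. Intervals from counts cover counting error and the spread between these libraries only.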

Additional observations from a re-analysis of the deposited data

Results flagged for a closer look

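As a share of library counts, NEAT1 was lower in both NT + TPL libraries than in both NT libraries and higher in both TAM + TPL libraries than in both TAM libraries, so all libraries of one cell state moved against those of the other. The difference of the 2 TPL effects was 1.05 on the log2 scale (edgeR, SE 0.21, adjusted p = 0.156), which did not pass. DESeq2 gave 1.06 with an adjusted p of 9.3e-05. With the transcript length of each library as an offset the difference was 0.26 (edgeR, adjusted p = 0.635), and on FPKM NEAT1 was higher with TPL in both cell states.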

How the results depend on the processing

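MALAT1 was not called in any comparison under any alternative run. With 1 library left out its log2 fold change ranged from -0.44 to 1.63 with TPL in NT, 0.02 to 0.67 with TPL in TAM, 0.93 to 1.65 in TAM against NT with DMSO, 0.03 to 2.10 with TPL, and -1.24 to 0.82 for the difference of the TPL effects. NEAT1 on counts was not called under any alternative, and its change with TPL in NT reversed to 0.52 with limma on log2(FPKM + 1), 0.53 on log2(FPKM + 0.1) and 0.52 with length offsets (added after seeing the data). The sign follows from the shorter transcript length, by which FPKM and the offsets divide. With 1 library left out it ranged from -0.95 to -0.76 with TPL in NT, 0.06 to 0.35 in TAM, -0.95 to -0.65 in TAM against NT with DMSO, 0.26 to 0.31 with TPL, and 0.91 to 1.21 for the difference.

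The long form with TPL in NT stayed between -2.84 and -2.34, and the short form between 1.17 and 1.38, with any library left out. Neither stayed a call, but with most libraries left out no gene at all was called with TPL in NT. The long form was at -4.63 with the short form at the lowest length in the files, which sets the long form to 0 in NT + TPL replicate 2. The short form was at 0.92 with GAPDH as the reference. Neither was then a call. In TAM against NT with DMSO the long form, at -1.34, passed at an adjusted p of 0.05, and DESeq2 gave -1.31, a call. DESeq2 also called the difference for the long form, 1.68. The short form in TAM against NT with TPL became -0.0015 with GAPDH as the reference. Leaving out 1 library gave the long form -1.17 to -0.62 with TPL in TAM, -1.64 to -1.09 in TAM against NT with DMSO, 0.13 to 0.63 with TPL and 1.43 to 1.98 for the difference, and the short form 0.95 to 0.98, 0.48 to 0.57, 0.16 to 0.37 and -0.40 to -0.19. With 1 library left out, the change in the share of the long form with TPL ranged from -26.5 to -23.6 percentage points. The ratio of MALAT1 to NEAT1 ranged from -0.63 to 0.31 and was 0.81 on expected counts. The number of lists with a peak over the MALAT1 start went from 1 to 4 with any annotated start site or a peak within 1000 bases.

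Between groups, the correlation over genes of same-numbered deviations ran from -0.20 to 0.08. With 2 libraries a group this cannot show whether samples of the same number were handled together. With a replicate block the long form was at -2.61 (adjusted p = 0.00189) and the short form at 1.27 (adjusted p = 0.00295) with TPL in NT, and no gene was called with TPL in NT, against 666 without it. A crossed pairing called 98. Over all genes, TPL in NT gave 2534 calls by DESeq2, 1435 under a minimum of 10 counts per library, 3576 with the limit on adjusted p at 0.05, 0 with only the groups compared and 0 to 213 with 1 library left out. For TPL in TAM the 488 calls became 2272 by DESeq2, 1249 under that minimum, 3251 at the looser limit, 277 with only the groups compared and 0 to 538 with 1 library left out. In TAM against NT, DESeq2 called 737 genes with DMSO and 667 with TPL. The cause of these shifts was not tested. With 2 libraries a group, the exact permutation tests could not go below 0.0556, and the lists of peaks have no depth or score to set a limit from.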
